A study of Mus musculus with 6 samples.

Results

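The genes described here are 40 chemokine, cytokine and NF-kB pathway genes of mouse, chosen by symbol from the 57180 genes of the deposited count table. They are 21 chemokine ligands, the atypical chemokine receptor gene Ackr3, 5 genes of the IL-1 family and TNF, 4 NF-kB subunits, 3 NF-kB feedback genes, 2 acute phase genes, 2 adhesion genes and 2 inducible enzymes. The gld group is 3 libraries of calvaria-derived cells from B6Smn.C3-Faslgld/J mice, which are homozygous for gld, a point mutation of the Fas ligand gene Fasl, and which the sample labels call FasL KO. The wt group is 3 libraries of calvaria-derived cells from C57BL/6 mice. Both were grown in the same osteogenic medium, MEM alpha with serum, antibiotics, ascorbate and β-glycerophosphate, and RNA was read by 3′ end sequencing. The labels give neither the age nor the number of the mice, nor whether each library had its own animal or culture. The p-values below therefore speak only of the scatter among 6 libraries, part or all of which may be technical.

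Chemokines are small secreted proteins that guide leukocytes through receptors on their surface, and they are named CC or CXC after the spacing of their first cysteines. NF-kB is a family of paired transcription factors held in the cytoplasm by IkB proteins and freed when TNF, IL-1 or microbial products activate the IkB kinases. It turns on chemokine, adhesion and acute phase genes and also its own inhibitors. In bone, osteoblasts, stromal cells and macrophages all make chemokines, and CC chemokines draw in monocytes and the precursors of osteoclasts.

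The gld libraries held 4048258 to 5245546 counts and the wt libraries 2011173 to 3105322, and levels are given as CPM, counts scaled to library size and composition. Fasl was listed at 0 in all 6 libraries, and since gld is a point mutation its transcript level checks neither label. Of 16 osteoblast and mesenchymal markers, 12 were tested, 7 were higher and 1 was lower in gld. Col1a1, the collagen I gene, had 104603 to 127099 counts in each gld library and 13394 to 29963 in each wt library. Alpl, the bone alkaline phosphatase gene, was the lower one. It had 169 to 258 counts in each gld library and 381 to 821 in each wt library. The osteoblast gene Ibsp was among the 7 higher, at low counts of 41, 24 and 32 in gld and 1, 2 and 0 in wt. Bglap and Spp1, also osteoblast genes, had 1 and 4 counts over all libraries. Their annotated ends are shared by several transcripts, so these low counts were not read as absence. Of 22 macrophage markers, 10 could be tested and all 10 were higher in gld in edgeR (7 in limma-voom). Of these 10, 9 passed the count filter through their gld libraries only, so the filter largely fixes that direction, and 5 were at 0 in every wt library. A further 7 (Csf1r, Adgre1, Tyrobp, Fcer1g, Cd163, Ctss and Aif1) were at 0 everywhere. The summed level of the list was 2371, 3696 and 6497 CPM in gld against 3.26, 124 and 19.2 CPM in wt. Lyz2 held most of that sum, with 1767, 2917 and 4944 CPM in gld. Without Lyz2 the sum was 603, 779 and 1554 CPM in gld against 0, 5.64 and 0.914 CPM in wt. All 10 lymphocyte markers and 8 of 10 neutrophil markers were at 0. The neutrophil marker Camp had 63, 31 and 149 counts in gld and 61, 94 and 135 in wt, and was not called (edgeR adjusted p = 0.207). S100a8, also a neutrophil marker, had 0, 7 and 4 counts in gld and 25, 5 and 29 in wt, too few to test. In such bulk cultures, fewer cells of a type and less RNA per cell cannot be told apart.

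A gene listed at 0 was not read as absent, since among the 40 genes the zeros went with how the 3′ end of a gene is annotated. The last 300 exonic bases of the principal transcript lay in a single annotated transcript (at least 99% of them) for 18 of the 40 genes, and were shared by several for 22. Summing all 6 libraries, the median gene of the 18 had 678 counts and none was at 0. The median gene of the 22 had 22.5 counts, and 9 of them were at 0 in every library. These 9 were Cxcl1, Cxcl2 and Cxcl5, which attract neutrophils, Cxcl10, an interferon-induced T cell attractant, Ccl2, the main monocyte attractant, Ccl20, the cytokine gene Il33, and the NF-kB subunit genes Nfkb2 and Relb. The data therefore say nothing of how these 9 genes differ between gld and wt. In the other lists, genes at 0 in all libraries also included some whose end lies in a single transcript, such as Cd3e, Cdh5, Ccr2 and Il1r1.

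**Figure D1:**
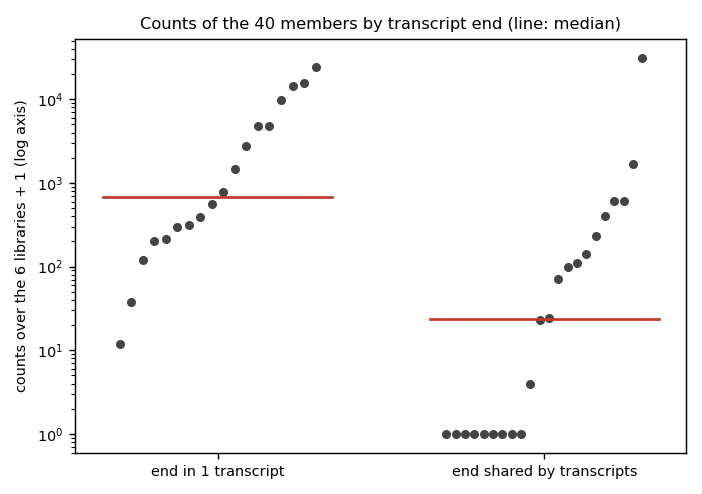
Counts summed over the 6 libraries plus 1, on a log axis, for the 18 genes whose end lies in 1 transcript and the 22 whose end is shared, with 1 point per gene and the median as a line. The medians are 678 and 22.5 counts, and all 9 genes at 0 have a shared end.

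In gld cells the chemokine genes split into a group that was higher (Ccl3, Ccl4, Ccl5, Ccl6 and Cxcl9) and a group that was lower (Ccl7, Ccl8 and Cxcl14), while the lowest adjusted p-values of the set were those of Il1rl1 and Il1rn, of the IL-1 family. Il1rl1, the receptor of IL-33, fell to 141 ± 52.0 CPM in gld, against 3362 ± 273 CPM in wt, and Il1rn, the secreted IL-1 receptor antagonist, rose to 109.9 ± 30.0 CPM in gld, against 2.71 ± 2.30 CPM in wt (SD, n = 3 each). The adhesion genes Icam1 and Vcam1 and the inhibitor gene Nfkbia rose too, whereas neither tested NF-kB subunit gene, Rela or Nfkb1, passed the test. Of the 40 genes, 24 had enough counts to be tested in edgeR's quasi-likelihood test, and at an adjusted p of 0.05 9 were higher and 4 were lower in gld. That is 54.2% of the tested members, against 17.4% of the 8692 genes tested in all, of which 9.74% were higher and 7.69% lower. Scaled by total count alone, 8.28% of all genes were higher and 11.2% lower, so the balance turned, and 7 members were higher and 5 lower. Other tools and settings called 16 (DESeq2), 11 (limma-voom), 17 (no filter on low counts), 12 (total count scaling) and 12 (replicate block) members, against 19.4%, 16.9%, 8.53%, 19.5% and 15.6% of the genes each tested. The median log2 fold change of the 24 was 0.47, and that of all tested genes 0.02. Of the 24, 14 had enough counts in each group alone. Through their gld libraries only, 7 passed the count filter (Cxcl9, Ccl3, Ccl4, Ccl6, Ccl25, Il1rn and Icam1). Another 3 passed through their wt libraries only (Cxcl14, Ccl11 and Nos2). The filter itself thus raises the share called among those 10 and largely fixes their direction. Of the 14, Ccl5, Nfkbia and Vcam1 were called higher, and Ccl7, Ccl8 and Il1rl1 lower. The members were chosen with earlier results of these data known, so the share called is no test of the set.

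**Figure D2:**
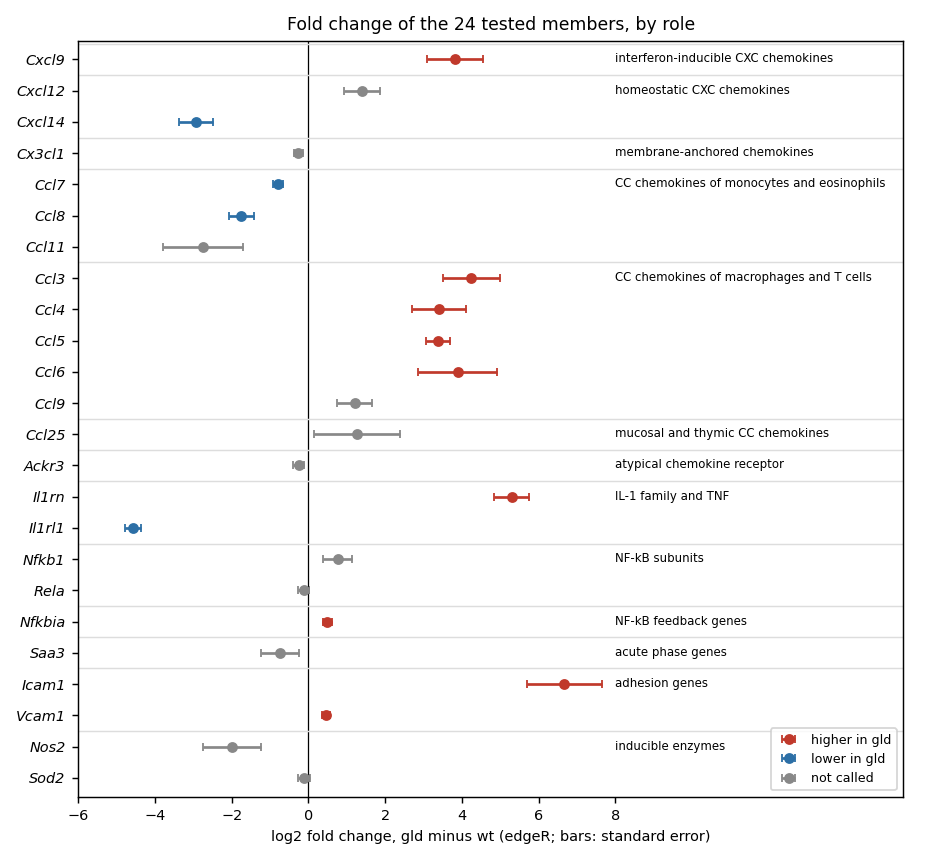
Log2 fold change, gld minus wt, with its standard error for the 24 tested members, in order of role, coloured by call. The CC chemokines of macrophages lie to the right and those of monocytes and eosinophils to the left of 0, and the tested NF-kB subunits Rela (−0.12) and Nfkb1 (0.76) were not called.

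The stretch just upstream of the transcription start is shown for 7 of these genes, because NF-kB acts through short sites there and the list was drawn up around it. RefSeq promoter windows (GRCm38.p6) were found for 28 of the 40 genes, 36 windows in all. The 250 bases upstream of each start were searched on both strands for exact matches to the kB consensus motif. That motif is GGGRNNYYCC, where R is A or G, Y is C or T and N is any base. It occurred in 9 of the 28 genes, against 8.23% of all 27025 genes with a window. Of the 6 genes with a window that are listed at 0, 5 held it (Cxcl1, Cxcl2, Cxcl10, Ccl20 and Nfkb2). Of the 9 called genes with a window, 1 held it, Nfkbia. A match describes the letters only. A stretch that differs from the motif by any base is not counted, so no match says nothing of NF-kB binding, there or elsewhere. The 100 bases before each start are printed 5′ to 3′ with the kB match in capitals.
Nfkbia (chr12:55492648-55492747, minus strand): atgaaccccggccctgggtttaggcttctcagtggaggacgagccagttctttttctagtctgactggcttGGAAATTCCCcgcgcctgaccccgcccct
Ccl9 (chr11:83578637-83578736, minus strand): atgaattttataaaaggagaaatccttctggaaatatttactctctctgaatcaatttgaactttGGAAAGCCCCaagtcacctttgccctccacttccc
Sod2 (chr17:13007739-13007838, plus strand): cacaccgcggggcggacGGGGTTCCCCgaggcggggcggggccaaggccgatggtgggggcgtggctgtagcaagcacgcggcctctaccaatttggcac
Icam1 (chr9:21015840-21015939, plus strand): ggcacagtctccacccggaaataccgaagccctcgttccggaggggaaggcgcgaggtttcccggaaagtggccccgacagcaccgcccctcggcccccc
Cxcl9 (chr5:92328080-92328179, minus strand): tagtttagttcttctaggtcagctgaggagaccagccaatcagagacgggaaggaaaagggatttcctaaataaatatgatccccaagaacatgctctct
Ccl3 (chr11:83649379-83649478, minus strand): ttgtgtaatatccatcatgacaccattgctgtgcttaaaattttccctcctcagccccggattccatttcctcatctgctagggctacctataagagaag
Il1rl1 distal start (chr1:40429470-40429569, plus strand): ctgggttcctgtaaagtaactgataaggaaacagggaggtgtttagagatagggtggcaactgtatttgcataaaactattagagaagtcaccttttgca
Il1rl1 proximal start (chr1:40439529-40439628, plus strand): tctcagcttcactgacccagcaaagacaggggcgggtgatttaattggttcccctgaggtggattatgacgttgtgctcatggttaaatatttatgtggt
The first 3 hold a kB match in this stretch, in the inhibitor gene Nfkbia, the chemokine gene Ccl9 and the mitochondrial superoxide dismutase gene Sod2, and of these Nfkbia was called. The other windows, of the called genes Icam1, Cxcl9, Ccl3 and Il1rl1, hold no exact match.

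Of the CXC chemokines, 3 could be tested, Cxcl9, Cxcl14 and Cxcl12, and in all 3 the groups did not overlap. Over all 24 tested members the groups did not overlap in 17, against 33.3% of all tested genes. Genes that passed the count filter through a single group, named above, are among those 17. Cxcl9, an interferon-induced chemokine for T cells that carry CXCR3, had 56, 63 and 179 counts in gld and 0, 6 and 8 in wt. Its groups lay apart, with gld 3 the highest library, and it rose by 3.82 ± 0.73 (SE) on the log2 scale (edgeR adjusted p = 0.00171). In limma-voom this call was lost (adjusted p = 0.101).

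Cxcl14, a chemokine of epithelia and stroma that is made without an inflammatory signal, had 53, 10 and 34 counts in gld and 96, 241 and 175 in wt. Every gld library was below every wt library in CPM, and gld 2 was the lowest. It fell by 2.93 ± 0.45 (SE) on the log2 scale (edgeR adjusted p = 0.000261). Without gld 1 it fell by 3.58. This puts Cxcl14 at 7.55 ± 5.28 CPM in gld and 57.9 ± 15.9 CPM in wt (SD, n = 3 each).

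Cxcl12, the stromal ligand of CXCR4 that keeps blood stem cells in the marrow, had 30.2, 23.8 and 21.0 CPM in gld and 6.06, 16.3 and 5.79 CPM in wt. The groups did not overlap, and the log2 fold change was 1.39 ± 0.46 (SE), short of the threshold (edgeR adjusted p = 0.0532). It passed in DESeq2 (adjusted p = 0.0329), in limma-voom (0.0461), without the filter on low counts (0.0336) and without wt 2 (0.00841), where the value was 2.07. Cxcl13, the B cell chemokine, and Cxcl16, a membrane-anchored ligand of CXCR6, had 37 and 70 counts over all libraries, too few to test, and the Cxcl16 counts were 0, 24 and 41 in gld and 0, 5 and 0 in wt.

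Cx3cl1 (fractalkine), the other membrane-anchored chemokine, which binds monocytes and microglia through CX3CR1, was at 385, 468 and 414 CPM in gld and 512, 528 and 481 CPM in wt. Its groups did not overlap, but the difference of −0.26 ± 0.12 (SE, log2) did not pass (edgeR adjusted p = 0.165). Scaled by total count alone, which puts the median over all tested genes at −0.14 (log2), it was −0.42 (adjusted p = 0.0207). Ackr3, a receptor that removes CXCL12 from the tissue without G protein signalling, had 190 to 242 CPM in gld and 237 to 266 CPM in wt, overlapping, with a log2 fold change of −0.25 ± 0.14 (SE, edgeR adjusted p = 0.275).

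The CC chemokine genes of chromosome 11 lie in 2 blocks (GRCm38), and the tested genes of each had fold changes of 1 sign. Ccl2, Ccl7, Ccl11, Ccl12 and Ccl8 lie within 82035571 to 82116799, and most of their products attract monocytes or eosinophils. Ccl5, Ccl9, Ccl6, Ccl3 and Ccl4 lie within 83525778 to 83664683, behind a gap of 1220.1 kb after Ccl1, and encode chemokines that macrophages and T cells make. In the first block all 3 tested genes had a negative log2 fold change and 2 of these were called. Ccl12, which is not among the 40 genes and had too few counts to test, lay the other way, with 3, 6 and 52 counts in gld and 0 in each wt library. In the second block all 5 tested genes had a positive value and 4 were called. Of these tested genes, Ccl3, Ccl4 and Ccl6 passed the count filter through their gld libraries only and Ccl11 through its wt libraries only. The filter largely fixed the sign of these genes, while Ccl7, Ccl8, Ccl5 and Ccl9 had enough counts in each group alone. The difference between the blocks was not tested.

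**Figure D3:**
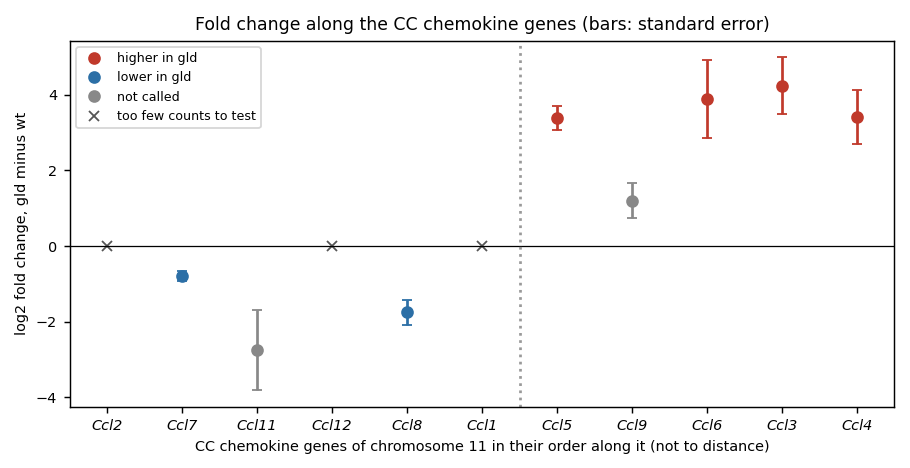
Log2 fold change, gld minus wt, with its standard error for 11 CC chemokine genes in their order along chromosome 11, where crosses mark genes with too few counts and the dotted line the gap between the blocks. Values left of the gap run from −2.75 (Ccl11, not called) to −0.79 (Ccl7), and values right of it from 1.20 (Ccl9, not called) to 4.25 (Ccl3).

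In the first block, Ccl7, a ligand of the monocyte receptor CCR2, had 446, 578 and 521 CPM in gld and 793, 949 and 937 CPM in wt. All gld libraries were lower, and Ccl7 fell by 0.79 ± 0.13 (SE) on the log2 scale (edgeR adjusted p = 0.000345). Its end lies in 1 transcript. Its neighbour Ccl2 has a shared end and is listed at 0, so of the CCR2 ligands in the list only Ccl7 can be compared. Shared ends do not always go with low counts, since Il1rl1 has one and held 30960 counts. Why Ccl2 is at 0 was not tested.

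Ccl8, which in mice acts through CCR8, had 51, 53 and 69 counts in gld and 98, 93 and 202 in wt, or 13.5 ± 0.78 CPM in gld and 45.5 ± 16.2 CPM in wt (SD, n = 3 each). The gld libraries were close to each other and below all wt libraries, and Ccl8 fell by 1.75 ± 0.33 (SE) on the log2 scale (edgeR adjusted p = 0.00161). Ccl11 (eotaxin), the eosinophil attractant, had 0, 15 and 4 counts in gld and 8, 38 and 53 in wt. Those groups overlap in CPM, and the log2 fold change of −2.75 ± 1.05 (SE) did not pass (edgeR adjusted p = 0.0958), although it did without gld 2 (−4.55, adjusted p = 0.0238), in DESeq2 (adjusted p = 0.0317) and without the filter on low counts (0.0380).

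In the second block, Ccl5 (RANTES), which attracts T cells and monocytes, had 113, 115 and 136 CPM in gld and 7.46, 19.1 and 7.61 CPM in wt. The groups lay far apart, and Ccl5 rose by 3.38 ± 0.32 (SE) on the log2 scale (edgeR adjusted p = 2.95e-06). Without wt 2 the value was 4.00. It was called in each of the 12 other settings, and in limma-voom it was the 1 gene called of this block.

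Ccl3 and Ccl4, which encode the macrophage inflammatory proteins MIP-1α and MIP-1β, had few counts in wt. Ccl3 had 98, 48 and 233 counts in gld and 0, 9 and 4 in wt, and Ccl4 had 62, 78 and 138 in gld and 0, 7 and 11 in wt. Both were highest in gld 3 and at 0 in wt 1, without overlap. Ccl3 rose by 4.25 ± 0.74 (SE) on the log2 scale (edgeR adjusted p = 0.000859), by 3.64 without gld 3 and by 5.24 without wt 2. Ccl4 rose by 3.41 ± 0.71 (edgeR adjusted p = 0.0031), and by 4.08 without wt 3. Neither passed in limma-voom (adjusted p = 0.118 for Ccl3 and 0.0671 for Ccl4).

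Ccl6 and Ccl9, CCR1 ligands known from mice, differed in how firm they were. Ccl6 had 82, 19 and 102 counts in gld and 0, 9 and 0 in wt, and rose by 3.89 ± 1.04 (SE) on the log2 scale (edgeR adjusted p = 0.0165), with gld 2 well below the other gld libraries. That call was lost without gld 1 (adjusted p = 0.0725), without gld 3 (0.0795), without wt 3 (0.0541, with a log2 fold change of 3.28), in limma-voom (0.114) and with the replicate block (0.0690), and without wt 2 no wt count is left. Ccl9, which osteoclasts and macrophages make, had 130, 90 and 399 counts in gld and 44, 91 and 35 in wt, with gld 3 far above all others and the groups overlapping. Its log2 fold change was 1.20 ± 0.46 (SE, edgeR adjusted p = 0.0947), and it was 0.47 without gld 3 (adjusted p = 0.583). It passed without gld 2 (adjusted p = 0.0389) and without the filter on low counts (adjusted p = 0.00314). Values without the filter are on another scale, as given with Tnf below.

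These chemokines moved with the macrophage markers between the groups and partly among the gld libraries. The marker sum was at 56.6%, 88.3% and 155% of its gld mean in gld 1, gld 2 and gld 3, and Ccl3 was at 86.4%, 44.7% and 169%, Cxcl9 at 62.3%, 74.0% and 164%, and Ccl6 at 132%, 32.4% and 135%. Ccl4 was at 72.1%, 95.9% and 132%, and Ccl5 varied less, at 93.1%, 94.7% and 112%. In wt 2, the wt library with the most macrophage marker counts, most of them from Lyz2, Ccl6 reached 18.4% of its gld mean and the marker sum 2.97%. Ccl3, Ccl5 and Ccl9 were also highest in wt 2 among the wt libraries, whereas Cxcl9, Ccl4 and Il1rn were highest in wt 3. The part of the macrophage markers in these results was not tested.

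**Figure D4:**
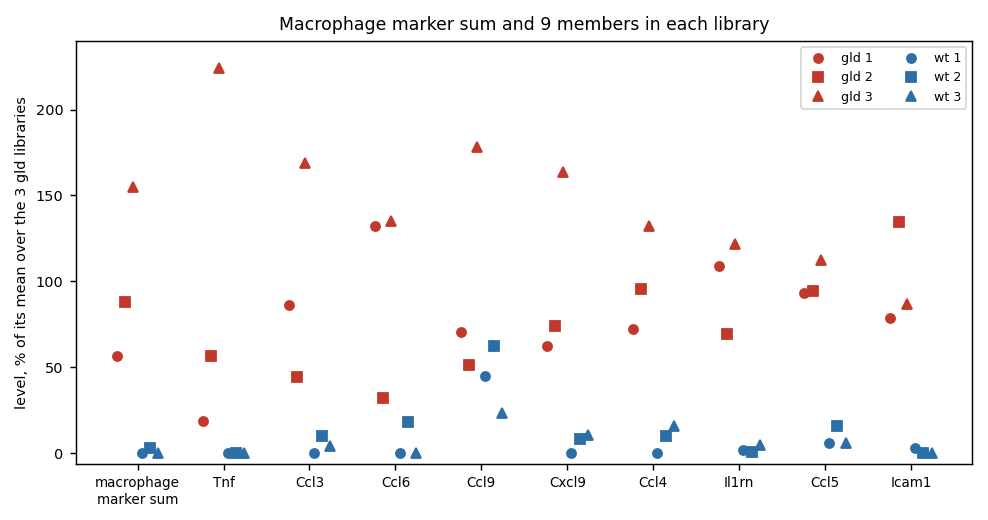
Level in each library as a percentage of the mean over the 3 gld libraries, for the summed macrophage markers and 9 members, with gld in red and wt in blue. The sum and Tnf, Ccl3, Ccl6, Ccl9, Cxcl9, Ccl4, Il1rn and Ccl5 are highest in gld 3, and Icam1 is highest in gld 2 (134.6%).

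Ccl25, which guides T cells to thymus and gut, had 18, 20 and 41 counts in gld and 14, 4 and 0 in wt, overlapping in CPM. The log2 fold change was 1.27 ± 1.13 (SE, edgeR adjusted p = 0.545). The count of 14 in wt 1 lowers this value, which was 3.21 without that library (adjusted p = 0.181) and 0.66 without wt 3 (adjusted p = 0.800).

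Il1rl1 (ENSMUSG00000026069, GRCm38 chromosome 1, 40429570 to 40465415, plus strand) encodes ST2, made both as the membrane receptor of IL-33 and as a soluble decoy. It had 812, 442 and 524 counts in gld and 6766, 11709 and 10707 in wt. Every wt library held more than every gld library by a wide margin, and Il1rl1 fell by 4.58 ± 0.21 (SE) on the log2 scale (edgeR adjusted p = 2.29e-09). It had the ninth lowest adjusted p among the 668 genes that fell. The fold change ran from −4.94 to −4.43 over the 12 other settings, and each kept the call. Il1rl1 made up 2.31% to 5.03% of the counts of the 40 genes in each gld library and 45.8% to 48.8% in each wt library. It has 5 annotated transcripts, and its last exonic bases are shared by several, so the table does not tell the membrane form from the soluble one. Its 2 RefSeq starts are printed above, and in mice fibroblasts are known to use mainly the proximal one. The gene lies 121.3 Mb from Fasl on the same chromosome. Its ligand gene Il33 is listed at 0 in all libraries.

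Il1rn (ENSMUSG00000026981, GRCm38 chromosome 2, 24336853 to 24351494, plus strand) encodes the antagonist that occupies the IL-1 receptor without signalling. It had 485, 291 and 656 counts in gld and 5, 2 and 17 in wt. The groups were far apart, with gld 3 the highest, and Il1rn rose by 5.30 ± 0.45 (SE) on the log2 scale (edgeR adjusted p = 8.94e-07). Without wt 3 the value was 6.33. The macrophage marker sum was higher in the same 3 libraries, and its part in this result was not tested.

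The IL-1 ligand gene Il1b, whose end lies in 1 transcript, had 4, 0 and 3 counts in gld and 0, 4 and 0 in wt, too few to test. Tnf, a main activator of NF-kB made by macrophages, had 6, 17 and 86 counts in gld and none in wt. It did not reach the count filter, and its mean level in gld was at least 22.4-fold above the floor of 3 counts over the wt group. The bound was 8.52-fold without gld 3, which held most of the counts, 14.1-fold without wt 2 and 13.9-fold without wt 3. Without the filter, edgeR called Tnf (adjusted p = 0.000263). That fit gave smaller adjusted p-values for the called members, with Il1rl1 at 5.59e-236 against 2.29e-09 in the main edgeR fit. Its values are therefore not on the scale of the main fit.

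Among the NF-kB subunits, Rela (p65), the main transactivating subunit, was at 191, 215 and 238 CPM in gld and 206, 238 and 255 CPM in wt. The groups overlapped, and the log2 fold change was −0.12 ± 0.14 (SE, edgeR adjusted p = 0.672). Nfkb1, which encodes the p105 precursor of p50, was at 35.9, 36.6 and 30.1 CPM in gld and 9.79, 18.8 and 31.1 CPM in wt. Here wt 3 lay within the gld range, and the log2 fold change of 0.76 ± 0.38 (SE) did not pass (edgeR adjusted p = 0.212).

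Nfkbia encodes IkBα, the inhibitor that NF-kB itself induces and that returns it to the cytoplasm, and the kB match 29 bases before its start is printed above. It was at 1170, 1169 and 1535 CPM in gld and 922, 896 and 939 CPM in wt. The wt libraries were close together and all gld libraries were above them, gld 3 most. Nfkbia rose by 0.49 ± 0.12 (SE) on the log2 scale (edgeR adjusted p = 0.00919). That call was lost without gld 3 (0.33, adjusted p = 0.0650) and when libraries were scaled by total count alone (0.33, adjusted p = 0.0687). Nfkbiz, which encodes a nuclear IkB protein, and Tnfaip3 (A20), a deubiquitinating inhibitor of the pathway, had 23 and 3 counts over the 6 libraries.

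Of the genes that NF-kB is known to induce at the cell surface, Icam1 (ENSMUSG00000037405, GRCm38 chromosome 9, 21015985 to 21028817, plus strand), the adhesion molecule that leukocyte integrins bind, had 50, 81 and 67 counts in gld and 1, 0 and 0 in wt. The ratio of pooled levels was 134 (23.7 to 5301, the exact 95% interval from counting alone), and edgeR gave an adjusted p = 0.000187. The ratio was 84.1 without wt 2 and 82.7 without wt 3, and without wt 1 no wt count is left. Icam1 was highest in gld 2 and the macrophage marker sum in gld 3, and the part of the macrophage markers in this result was not tested. An antisense gene model, Gm47079, overlaps its end and is itself at 0.

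Vcam1, an adhesion molecule for lymphocytes and monocytes that stromal cells of the marrow also carry, was at 760, 858 and 863 CPM in gld and 590, 610 and 620 CPM in wt. The wt libraries were nearly equal and all below the gld ones, and Vcam1 rose by 0.45 ± 0.11 (SE) on the log2 scale (edgeR adjusted p = 0.00811). That call was lost without gld 2 (0.40, adjusted p = 0.0622) and with total count scaling (0.29, adjusted p = 0.0795).

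**Figure D5:**
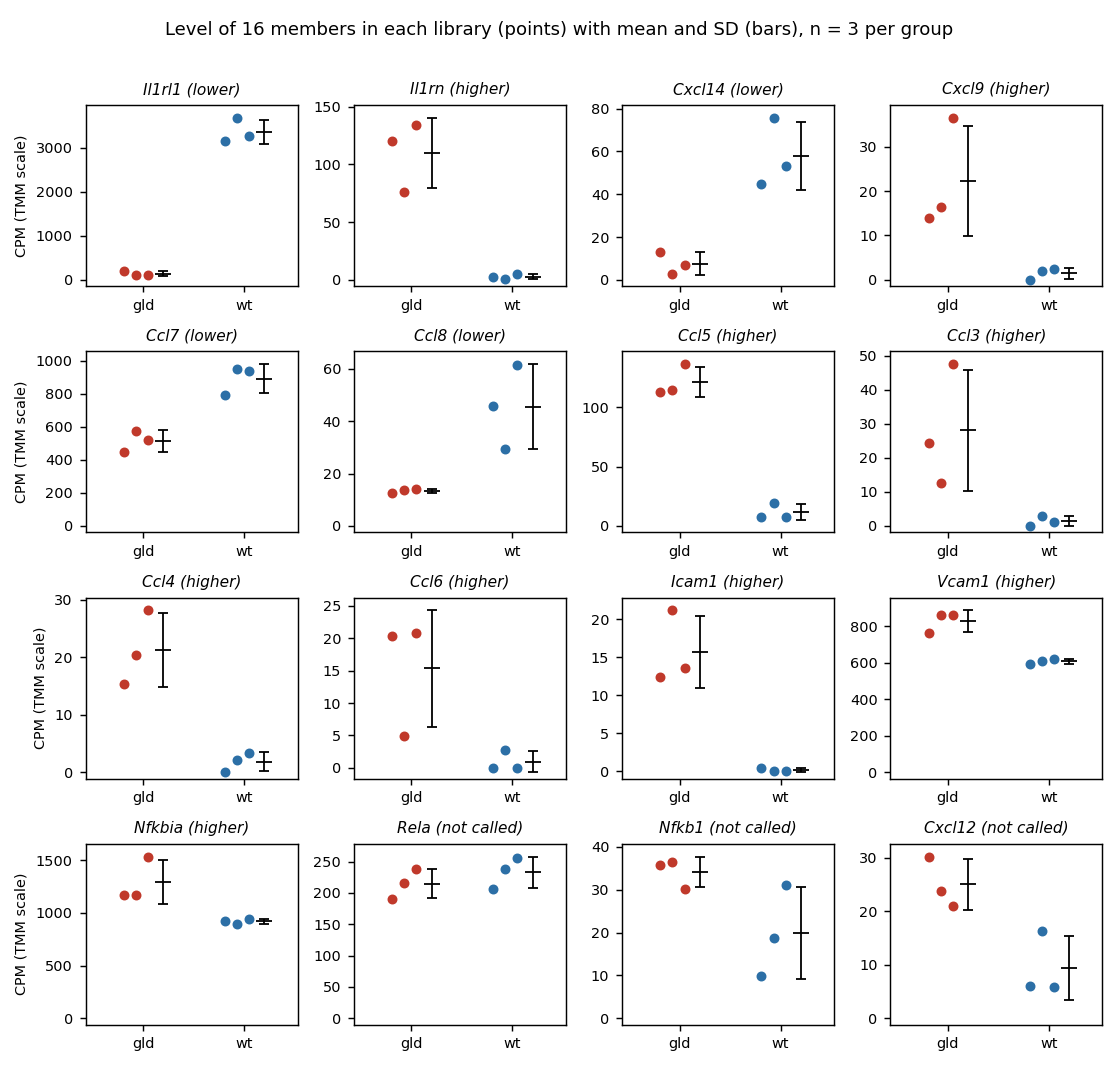
Level in CPM on the TMM scale of 16 members, with 1 point per library and the mean and SD beside them, gld left and wt right in each panel, and the edgeR call in the title. Il1rl1 falls to 141 CPM in gld against 3362 CPM in wt, and for Rela and Nfkb1 the points of the groups overlap.

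The acute phase and enzyme genes gave no call. Saa3, a serum amyloid A made outside the liver, was at 10.9, 5.23 and 9.77 CPM in gld and 17.7, 12.5 and 13.4 CPM in wt, without overlap, with a log2 fold change of −0.74 ± 0.49 (SE, edgeR adjusted p = 0.375). Lcn2, which withholds iron from bacteria, had 22 counts in all. Nos2, the inducible nitric oxide synthase, had 11, 23 and 3 counts in gld and 29, 47 and 29 in wt.

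Every gld library was below every wt library in Nos2, and its log2 fold change of −1.99 ± 0.76 (SE) did not pass (edgeR adjusted p = 0.0945). It did in DESeq2 (adjusted p = 0.0493), in limma-voom (0.0498) and without gld 2 (−2.91, adjusted p = 0.0390). Sod2, the mitochondrial superoxide dismutase that NF-kB induces, was at 123 ± 12.7 CPM in gld and 134 ± 4.81 CPM in wt (SD, n = 3 each), overlapping, with a log2 fold change of −0.13 ± 0.16 (SE, edgeR adjusted p = 0.689).

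Summed over all 40 genes, the level was 4241 ± 334 CPM in gld and 7120 ± 399 CPM in wt (SD, n = 3 each). The groups did not overlap, and a two-sided exact permutation test gave p = 0.1, the smallest that 3 against 3 libraries allow. Without Il1rl1 the sum was 4100 ± 373 CPM in gld and 3758 ± 162 CPM in wt, overlapping (exact permutation p = 0.3), so Il1rl1 sets the direction of the sum.

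Other parts of the pathway were read from 5 further lists. Of 29 receptors and adaptors that lead to NF-kB, 15 were tested, 1 was higher and 3 were lower in gld, or 26.7% of those tested, not far from the 17.4% of all genes. Tlr2, a receptor for bacterial lipoproteins, had 491, 527 and 772 counts in gld and 54, 143 and 106 in wt, and rose by 2.01 ± 0.23 (SE) on the log2 scale. Cd14, the lipopolysaccharide co-receptor that also serves Tlr2, had 283, 262 and 671 counts in gld and 592, 974 and 771 in wt, and fell by 1.56 ± 0.24.

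Tirap, the adaptor that brings MyD88 to Tlr2 and Tlr4, had 21, 14 and 34 counts in gld and 60, 65 and 68 in wt, and fell by 2.11 ± 0.45 on the log2 scale. The TNF receptor gene Tnfrsf1b fell by 0.88 ± 0.20, while Tnfrsf1a, the receptor through which TNF mainly acts, did not pass (−0.25 ± 0.12, edgeR adjusted p = 0.195). The largest edgeR adjusted p of these 4 called genes was 0.00623. All 4 were also called in DESeq2 and in limma-voom, which called 4 of the list each.

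No gene of 11 tested among 22 IkB kinases and NF-kB regulators was called by edgeR, with 2 at an unadjusted p under 0.05 and 1 called each by DESeq2 and limma-voom. That 1 was Tab2, an adaptor of the TAK1 kinase, with a log2 fold change of 0.38 ± 0.13 (SE, edgeR adjusted p = 0.0539). The subunit gene Rel had 94, 128 and 175 counts in gld and 13, 65 and 51 in wt, with 1.12 ± 0.42 (SE, edgeR adjusted p = 0.0879).

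Of 22 chemokine receptor genes, 15 were at 0 in all libraries, 6 had too few counts and 1, the scavenging receptor gene Ackr4, was tested and did not pass (0.84 ± 0.88, edgeR adjusted p = 0.623). Ppbp, the 1 tested of 17 other chemokine ligand genes, had 0.86 ± 0.88 (edgeR adjusted p = 0.617). Neither list held a gene called by DESeq2 or limma-voom or one at an unadjusted p under 0.05. The receptors through which most of the chemokines above act can thus not be compared in these cells.

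Of 28 other genes that NF-kB is known to induce, 17 were tested, 5 were higher and 7 lower in gld, or 70.6% of those tested, against 17.4% of all genes. The list was chosen with earlier results of these data known, so this share is no test of it. Among the called genes Csf3, the granulocyte growth factor gene, had 53, 54 and 120 counts in gld and 244, 371 and 363 in wt, and fell by 2.71 ± 0.26 (SE) on the log2 scale (edgeR adjusted p = 3.04e-06). Ptgs2 and Ptges, which encode enzymes of prostaglandin E synthesis, fell too. Ptgs2 fell by 5.36 ± 0.13 and Ptges fell by 2.76 ± 0.17, whereas C3, of the complement system, rose by 2.86 ± 0.15 (largest edgeR adjusted p of these 3 genes = 3.24e-08). Il1a, an IL-1 receptor ligand gene named here after its values were seen, had 0 counts in each gld library and 27, 44 and 76 in wt. It was at least 70.3-fold lower in gld (edgeR adjusted p = 8.55e-05), or at least 43.3-fold without gld 3, by a floor of 3 counts over the gld group. With no gld count, Il1a passed the count filter through its wt libraries only, which fixed its direction.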

How the data were processed

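QuantSeq 3′ mRNA FWD libraries were made from total RNA and read as single ends of 75 nt, per the labels' protocols. Per the series' design text, reads were trimmed with Cutadapt and aligned with STAR. Trim Galore, FastQC and DESeq2 are listed in the submitters' processing notes, with mm10 as the build. No source used here gives the read counter, the strand it used or the gene models, so overlapping and antisense genes cannot be told apart. The authors deposited raw counts (whole numbers) for Ensembl genes in 57180 rows with an identifier, and 1 empty row was left out. Symbols, positions and transcript ends came from GENCODE M21 (GRCm38) and a table of gene names, which held 51883 of the identifiers.

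Genes were kept by filterByExpr (about 10 counts in 3 libraries, 15 in all), scaled by TMM and tested over the 6 libraries with edgeR 4.0.16 (quasi-likelihood, R 4.3.3, no covariate, Benjamini-Hochberg over 8692 genes, threshold 0.05). Fold changes are log2, gld minus wt, and their SE is the absolute fold change over the square root of F. CPM are on the TMM scale. Where a group had no count, the floor is 3 counts over that group, and where it had 1 to 3 the 95% interval is exact. Both cover counting error only, since the labels name no molecular identifiers. The 12 other settings were edgeR with DESeq2 size factors or total counts alone, no filter, DESeq2 1.42.0, limma-voom (limma 3.58.1), a replicate block, and each library left out. Adjusted p-values without the filter are not on the scale of the main fit. The tests were checked on simulated data. The members, lists and the rule for named genes were chosen with earlier results of these data known. That rule takes all members, and from each pathway list up to 4 called genes by adjusted p, or up to 2 where none was called.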

Additional observations from a re-analysis of the deposited data

How the results depend on the processing

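Of the 13 called members, 7 kept their call and direction in all 12 other settings (Il1rl1, Cxcl14, Ccl7, Ccl8, Ccl5, Il1rn and Icam1), and the other 6 lost it in at least 1, as given with their values above. The cause was not tested. With 1 library left out, 11 to 15 members were called, against 13. Without the filter 3 other chemokine ligand genes were called (2 higher and 1 lower), and 0 to 1 with 1 library left out (1 without gld 2), against 0. Among the IkB kinases and NF-kB regulators 1 was called, higher, without the filter, against 0, and this was Tnip3. DESeq2 and limma-voom each called 1, higher, and this was Tab2. With 1 library left out, 0 to 1 of this list were called. Receptors and adaptors that were higher numbered 1 to 2 with 1 library left out (2 without wt 2), against 1. The summed level of the members in gld over wt was 0.534 with total count scaling and 1.09 without Il1rl1, an alternative chosen after seeing the data, against 0.596. The summed macrophage marker ratio was 58.4 to 373 with 1 library left out, highest without wt 2, against 85.7. Without Lyz2, with all libraries kept, that ratio was 448. All genes called numbered 1224 to 1424 with 1 library left out, against 1515. The replicate numbers of the labels did not pair the libraries (correlation of deviations from the group means −0.02, −0.01 and −0.02 for numbers 1, 2 and 3), and with the replicate block edgeR called 12 members and 1359 genes, losing Ccl6 among the members. Low counts limit the 16 members that were not tested, 9 of them at 0.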

Other observations

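Some further genes, 3 of chemokines and 1 of an NF-kB regulator, had counts in 1 group alone but too few to pass the count filter. Ccl17, which attracts T helper cells through CCR4, had 0 counts in each gld library and 19, 7 and 7 in wt (edgeR without the filter, adjusted p = 0.0160). Ccl12, a mouse CCR2 ligand of the same block as Ccl7, had 3, 6 and 52 counts in gld and 0 in each wt library (adjusted p = 0.0209). Cxcl15, known from mouse lung, had 28, 5 and 27 counts in gld and 0 in each wt library (adjusted p = 0.0165). Tnip3, which encodes a partner of A20, had 16, 22 and 10 counts in gld and 0 in each wt library (adjusted p = 0.0358). These 4 genes were named after their values were seen. Their adjusted p-values come from the fit without the filter and are not on the scale of the main fit, as given with Tnf above.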
